A study of Mus musculus with 4 samples.

Results

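Motile cilium and axonemal dynein genes were followed across 4 mouse tumours profiled by polyA RNA sequencing. The genes were chosen by name alone: every gene of the deposited count table whose mouse symbol is Dnah, Dnaic, Dnali, Rsph, Cfap, Drc, Spag or Tekt followed by a number and at most 1 further letter, with Foxj1 left out. This gave 74 of 46946 genes. Per the labels, each tumour was untreated, carried the K27M genotype and was derived from neural stem cells with PDGF, so all 4 form 1 group (PDGFB K27M) with no control tissue and no second genotype. The text for the whole series instead describes tumours from injected DIPG cells with mutant histone H3.3, a difference that the tables used here do not settle. The labels used here give no strain, age or site, and nothing beyond the word tumour says that the samples came from separate animals, so any p-value measures only the spread between these libraries. The libraries carry the column names T14, T10, T8 and TUN and held 21664889 to 24369339 counts. Wherever 4 values follow each other below, they stand in that order of tumours.

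A motile cilium is a beating hair of the cell surface built on an axoneme, a ring of doublet microtubules around a central pair. Outer and inner dynein arms, the motors, sit on the doublets. Radial spokes link the doublets to the central pair, and the nexin-dynein regulatory complex ties neighbouring doublets together and controls the arms. In the brain, ependymal cells that line the ventricles carry tufts of such cilia and choroid plexus epithelium also bears cilia, while neurons, glia and many dividing cells carry a single primary cilium that has no such motor system. In ciliated cells the forkhead factor Foxj1 and the RFX factors are known activators of axonemal genes. RFX factors bind a promoter element called the X-box, whose half-site is GTTGCC.

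X-box letters are shown first, as a feature of the promoters that the naming rule did not use. RefSeq promoters of mouse build GRCm38.p6, 250 bases before to 50 after the gene start, matched 60 of the 74 members by symbol. The letters GTTGCC occurred on either strand in 21 of 53 axonemal members (39.6%), against 14.1% of 27025 genes with a promoter and 14.8% of 10635 protein-coding genes at a mean of 1 CPM (counts scaled by library size) or more in these tumours. The longer GTTGCCAT, which contains the half-site, occurred in 5 of the 53 (9.43%), against 1.54% of all genes and 1.31% of those protein-coding genes. Other motile cilium genes, including assembly factors, fixed in a second list and not matched by the naming rule held GTTGCC in 19 of 36 promoters (52.8%) and GTTGCCAT in 6 (16.7%). The forkhead letters TGTTTAC occurred in 3 of 53 axonemal members (5.66%) against 4.05% of all genes, and the wider TGTTTNC, which contains them, in 19 (35.8%) against 22.8%. In the second list TGTTTAC occurred in 2 of 36 (5.56%) and TGTTTNC in 9 (25%), the latter near the share of all genes. These are matches of letters on both strands of a short window and not measured binding. The 21 members with GTTGCC include the close relatives Dnah7a, Dnah7b and Dnah7c, whose promoters are much alike near the match but were counted separately.

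The members that hold the longer element are printed 5′ to 3′ on the strand of the gene, with the element, GTTGCCAT or its reverse complement ATGGCAAC, in capitals. They show the same letters close to the gene start, in both orientations. The windows lie at chr16:44394738-44394825 (Cfap44, plus strand), chr11:72361850-72361937 (Tekt1, minus strand), chr7:83794833-83794920 (Cfap161, minus strand), chr4:155409163-155409250 (Cfap74, plus strand) and chr4:43653545-43653609 (Spag8, minus strand).
Cfap44: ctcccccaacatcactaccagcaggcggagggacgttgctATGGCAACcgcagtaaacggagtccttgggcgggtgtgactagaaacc
Tekt1: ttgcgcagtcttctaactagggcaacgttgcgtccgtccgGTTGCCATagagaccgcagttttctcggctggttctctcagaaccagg
Cfap161: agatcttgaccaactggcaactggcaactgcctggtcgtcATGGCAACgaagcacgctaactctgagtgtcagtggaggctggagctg
Cfap74: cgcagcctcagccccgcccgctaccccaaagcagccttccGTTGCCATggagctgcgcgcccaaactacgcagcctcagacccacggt
Spag8: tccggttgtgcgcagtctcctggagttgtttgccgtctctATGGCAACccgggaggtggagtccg
The element does not mark a common level. Tekt1, a tektin of the doublet wall, stood between 1.72 and 2.52 CPM in all tumours, while Cfap44, a tether of inner dynein, ranged from 0.0893 to 2.4 CPM.

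Most members were low. Of the 74, 30 (40.5%) had at least 1 CPM in each of the 4 tumours, against 28.2% of all genes in the table. Only 25961 of those 46946 genes had any count, and genes that do not code for protein are among them. The 28.2% is therefore not a like background for the members. A further 20 reached it in some tumours and 24 in none. A count of 0 allows up to 3 counts, which is 0.122 to 0.134 CPM, and covers counting error only. At or below 3 counts in every library were 6 members: the epididymal genes Spag11a and Spag11b with 0 counts, and Rsph6a, Tekt3, Dnah14 and Cfap73. The median of the members' mean levels was 1.04 CPM.

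The 74 names fall into sets that were apart in level. One set holds 10 members known for roles also outside motile axonemes: Spag4, Spag5, Spag7, Spag9, Spag11a, Spag11b, Cfap20, Cfap36, Cfap97 and Cfap298. Cfap298 is known for dynein arm assembly and sits in this set by the grouping that was fixed for this work, not by its known role. The other 64 are called axonemal members here. Per length, the median of the mean levels was 12.3 RPKM (counts scaled to library size and gene length) in the first set and 0.197 RPKM in the axonemal set. Spag9 alone, which encodes a scaffold of kinase signalling and vesicle transport, supplied 54.3% to 64.3% of the members' summed CPM in each tumour. A sum over the naming rule is therefore mostly the level of a gene that is not axonemal.

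**Figure D1:**
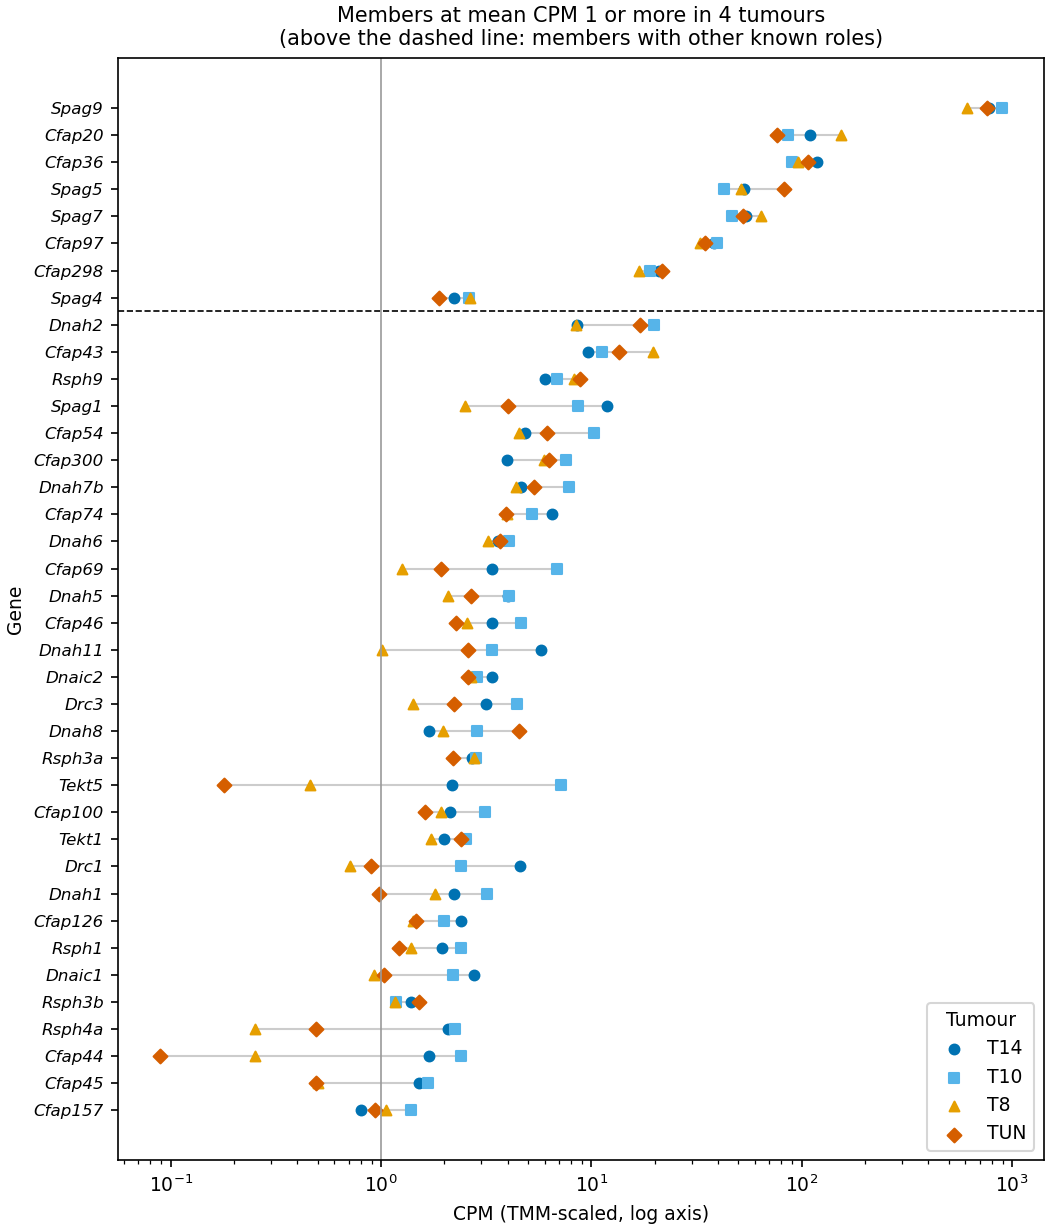
CPM (log axis) of the 38 members at a mean of 1 CPM or more, 1 point per tumour and gene, with members of other known roles above the dashed line and a grey line at 1 CPM. Spag9 sits between 611 and 892 CPM in all tumours, whereas Tekt5 spans 0.179 to 7.16 CPM.

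Among the members of other known roles, Spag9 (chromosome 11, 93996091 to 94126085 in mm10) stood at 774, 892, 611 and 759 CPM. Cfap20, a doublet microtubule protein also known from centrioles, stood at 109, 85.7, 153 and 76 CPM. Cfap36, a partner of the small GTPase Arl3, stood at 118, 89.4, 96.4 and 107 CPM. The highest and lowest tumour differed by 1.46-fold, 2.02-fold and 1.32-fold, and T8 was lowest for Spag9 and highest for Cfap20, so the 3 genes gave no common order of tumours. Spag7 stood at 54.5 ± 7.38 CPM (SD, n = 4), Cfap97 at 36.2 ± 3.16 CPM, Cfap298 at 19.6 ± 2.2 CPM and Spag4, a nuclear envelope protein of the SUN family, at 2.33 ± 0.361 CPM. Spag5 encodes astrin, a protein of the mitotic spindle, and stood at 53, 42.8, 51.6 and 82.3 CPM. Its highest tumour was also that of the mitosis markers Top2a (276, 278, 500 and 677 CPM), Mki67 and Tpx2, while T8, in which those markers were also above T14 and T10, lay beside T14 for Spag5.

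An edgeR goodness of fit asks whether a gene varies more between the tumours than genes of similar level do. With adjustment over all 14266 genes tested it called 4.34% of them and 0 of the 36 members tested. DESeq2 marked 0 of the same 36 as dispersion outliers, against 78 of the 14266 genes, a share so small that 0 of 36 says little. At an unadjusted p under 0.05 edgeR gave 1 of the 36, Drc1, whose adjusted p was 0.333, against 1196 of the 14266 genes. The filter on low counts left out 38 members, among them those with the widest ranges, and the count of 0 says nothing of these. The differences between tumours below are therefore given as values without a call.

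**Figure D2:**
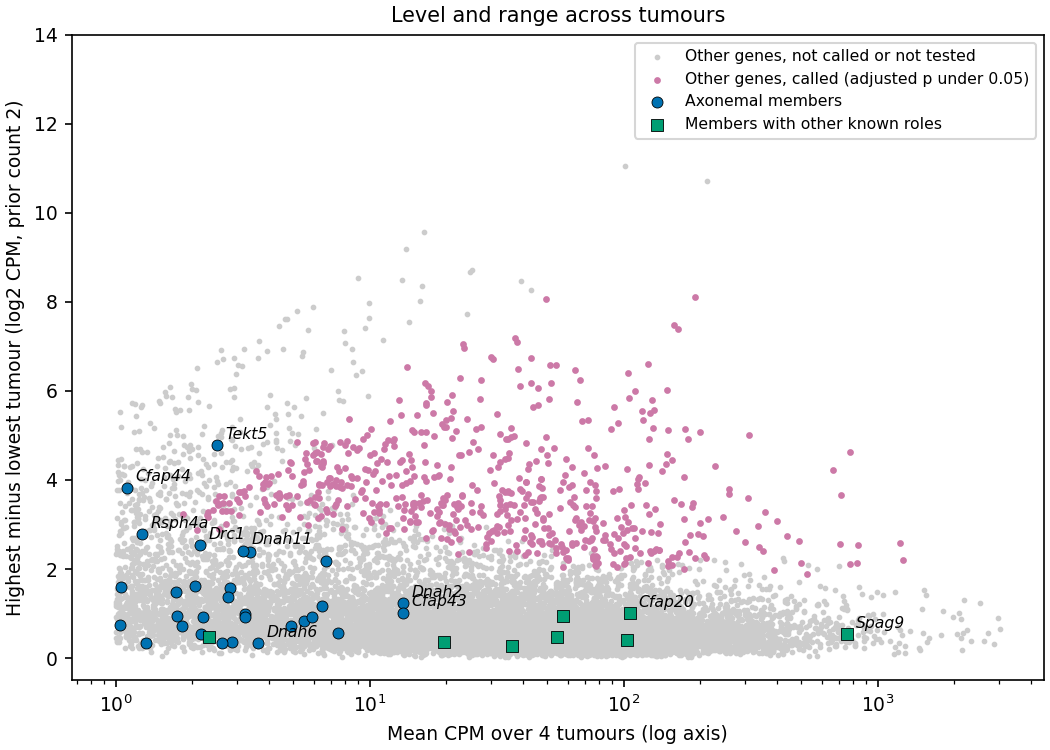
Mean CPM over 4 tumours (log axis) against the difference between the highest and lowest tumour in log2 CPM, for all genes at a mean of 1 CPM or more. Axonemal members (circles) lie at the low end of the level axis with ranges up to 4.78 for Tekt5, and members of other known roles (squares) lie at or below about 1. Pink was used only for called genes that are not members. Of the 36 members tested 0 were called, and Tekt5, Cfap44 and Rsph4a were not tested.

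The motors were present at low levels, and the inner-arm gene Dnah2 was the highest heavy chain in every tumour, in CPM and in RPKM. Of the 5 outer-arm heavy chains, Dnah11 stood at 5.73, 3.38, 1.01 and 2.59 CPM. Dnah5, the outer-arm motor of many ciliated epithelia, stood at 3.99, 4.07, 2.09 and 2.68 CPM. T14 and T10 were the higher tumours for both. Dnah8, known best from sperm, ran otherwise with 1.69, 2.85, 1.97 and 4.51 CPM and was highest in TUN. Dnah9, a motor of the distal part of airway cilia, had 31, 42, 4 and 11 counts (1.38, 1.71, 0.168 and 0.491 CPM), and Dnah17, a sperm motor, stood at 0.311, 0.366, 0.461 and 0.536 CPM. Exons of Dnah11 share 642 bases (4.4% of its length) with Cdca7l on the other strand, which had 212, 315, 605 and 591 counts, and the kit does not mark strand. The part of Cdca7l reads in the Dnah11 values was not tested.

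Of the 9 inner-arm heavy chains, Dnah2 (chromosome 11, 69420809 to 69549110) was the most abundant, at 8.57, 19.9, 8.46 and 17 CPM. It was high in T10 and TUN and low in T14 and T8. Its level per length was 0.911 ± 0.396 RPKM (SD, n = 4). Dnah6 stood at 3.6, 4.07, 3.23 and 3.66 CPM, within 1.26-fold, and Dnah7b at 4.62, 7.82, 4.36 and 5.31 CPM, both in the order of tumours that Dnah2 had, with T10 first and T8 last. Dnah7a and Dnah7c are close relatives of Dnah7b, and how reads that match several genes were counted is not given in the sources used here, so the split among the 3 is uncertain. Dnah1 averaged 2.04 CPM, and Dnah3, Dnah7a, Dnah7c, Dnah10 and Dnah12 were each below 1 CPM on average. The intermediate chains of the outer arm stood at 1.72 ± 0.896 CPM (Dnaic1) and 2.87 ± 0.35 CPM (Dnaic2), and Dnali1, a light intermediate chain of inner arms, at 1.29, 1.14, 0.377 and 0.0893 CPM.

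Radial spoke genes included both even and uneven members. Rsph9, of the spoke head, was the axonemal member with the highest level per length, 4.68 ± 0.817 RPKM (SD, n = 4). It stood at 5.99, 6.84, 8.3 and 8.84 CPM, with T8 and TUN above T14 and T10. Its partner in the spoke head, Rsph4a, ran the other way with 2.09, 2.24, 0.251 and 0.491 CPM, from 47, 55, 6 and 11 counts. T14 and T10 stood apart from T8 and TUN for this gene, which was not tested because of its low counts. Rsph6a, the sperm paralog of Rsph4a, had 1 count in T10 and 0 elsewhere. Rsph1 stood at 1.74 ± 0.547 CPM, Rsph10b had 23, 23, 1 and 4 counts and Rsph14 had 4, 2, 0 and 0. Rsph3a and Rsph3b, copies of each other that may share reads, stood at 2.62 ± 0.289 and 1.31 ± 0.166 CPM, and Rsph3a shares 13.6% of its length with E430024P14Rik on the other strand.

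In the nexin-dynein regulatory complex, Drc1, a scaffold subunit, stood at 4.57, 2.4, 0.712 and 0.893 CPM, a 6.42-fold span. Drc3 stood at 3.15, 4.44, 1.42 and 2.23 CPM. Drc7 had 26, 46, 9 and 2 counts. In all 3 genes T14 and T10 were above T8 and TUN.

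Tektins are filament proteins of the doublet wall. Tekt5 (chromosome 16, 10357948 to 10395490), known from sperm flagella, had 49, 176, 11 and 4 counts, which is 2.17, 7.16, 0.461 and 0.179 CPM. This 40.1-fold span was the widest among members at a mean of 1 CPM or more. Tekt5 was not in the main test. With a filter at a mean of 1 CPM in its place, edgeR gave an adjusted p of 0.0247, with no filter 0.0417, and without TUN 0.0432. T10 decides much of its mean, and such a filter lets a gene in through the tumour where it is high, so these p-values are no independent support. Tekt1 stood at 2.16 ± 0.373 CPM (SD, n = 4), Tekt2 and Tekt4 at a mean of 0.435 and 0.439 CPM, and Tekt3 had 2 single counts, 1 in T10 and 1 in TUN.

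The 24 Cfap genes of the axoneme ranged from 0.0221 RPKM (Cfap58) to 3.73 ± 0.933 RPKM (Cfap300, known for dynein arm assembly). Cfap300 stood at 3.95, 7.53, 5.95 and 6.3 CPM in T14, T10, T8 and TUN. Cfap43, which with Cfap44 tethers an inner dynein to the doublet, was the most abundant of them by CPM, at 9.63, 11.2, 19.6 and 13.5 CPM, highest in T8. Cfap44 itself had 38, 59, 6 and 2 counts (1.69, 2.4, 0.251 and 0.0893 CPM). The tether genes thus lay in opposite orders of tumours, Cfap43 with T8 and TUN above T14 and T10 and Cfap44 with the reverse. Cfap54 and Cfap46, of the central pair, stood at 4.84, 10.3, 4.53 and 6.16 and at 3.37, 4.64, 2.56 and 2.28 CPM. Cfap69, known from sperm and olfactory cilia, stood at 3.37, 6.88, 1.26 and 1.92 CPM (edgeR adjusted p = 0.813). T10 was the highest tumour for these 3 genes. Cfap74, also of the central pair, stood at 6.52, 5.21, 3.98 and 3.93 CPM, and 4.6% of its length is shared with 5830444B04Rik on the other strand, which had 133, 21, 2 and 1 counts. Cfap126, an inner wall protein, stood at 1.82 ± 0.462 CPM and Cfap100 at 2.2 ± 0.659 CPM. Only these genes other than Cfap44, 8 in all, reached 1 CPM in every tumour among the 24. Cfap45, Cfap157 and Cfap61 averaged 1.04, 1.04 and 0.968 CPM, and Cfap65 had 20, 39, 4 and 0 counts. The other 11 did not reach 1 CPM in any tumour, among them Cfap52 with 21, 22, 2 and 2 counts, Cfap206 with 10, 19, 1 and 0 and Cfap53, known from left-right patterning, with 5, 7, 1 and 0.

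Of the 6 Spag genes of the axoneme or of dynein assembly, Spag1, an assembly factor, was the most abundant, at 11.8, 8.63, 2.51 and 4.02 CPM. Spag6l and its copy Spag6, of the central pair, had 28, 36, 7 and 3 counts and 5, 16, 2 and 1 counts. Spag16 and Spag17, also of the central pair, had 25, 32, 8 and 1 and 5, 6, 0 and 0 counts. Spag8, a protein of the doublet lumen, had 18, 22, 6 and 8 counts. All 6 of these genes were higher in T14 and T10 than in T8 and TUN.

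Summed over the 64 axonemal members, the level was 134, 171, 96.8 and 108 CPM, a 1.77-fold span, with exact Poisson intervals (95%) of 129 to 139, 165 to 176, 92.9 to 101 and 104 to 112 that cover counting error only. The sum over members of other known roles was 1169, 1218, 1029 and 1136 CPM, a 1.18-fold span. By role, the axonemal groups differed in span. Nexin-dynein regulatory complex genes spanned 3.53-fold, tektins 4.18-fold and Spag genes of the axoneme or dynein assembly 4.42-fold. Radial spoke genes, led by Rsph9, spanned 1.19-fold. Single genes weighed on these spans: without Tekt5 the tektin sums were 3.33, 3.87, 2.18 and 2.86 CPM, a 1.78-fold span, and without Rsph9 the radial spoke genes spanned 1.74-fold. Without their most abundant members, Drc3 and Spag1, the nexin-dynein regulatory complex genes spanned 5.83-fold and the Spag genes 7.85-fold. These sums were chosen after seeing the data. Without Dnah2 and Cfap43, the members at a mean of 10 CPM or more, the axonemal sums were 116, 140, 68.7 and 77.2 CPM, and with Cfap298 added they were 155, 190, 114 and 129 CPM, in the same order of tumours.

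**Figure D3:**
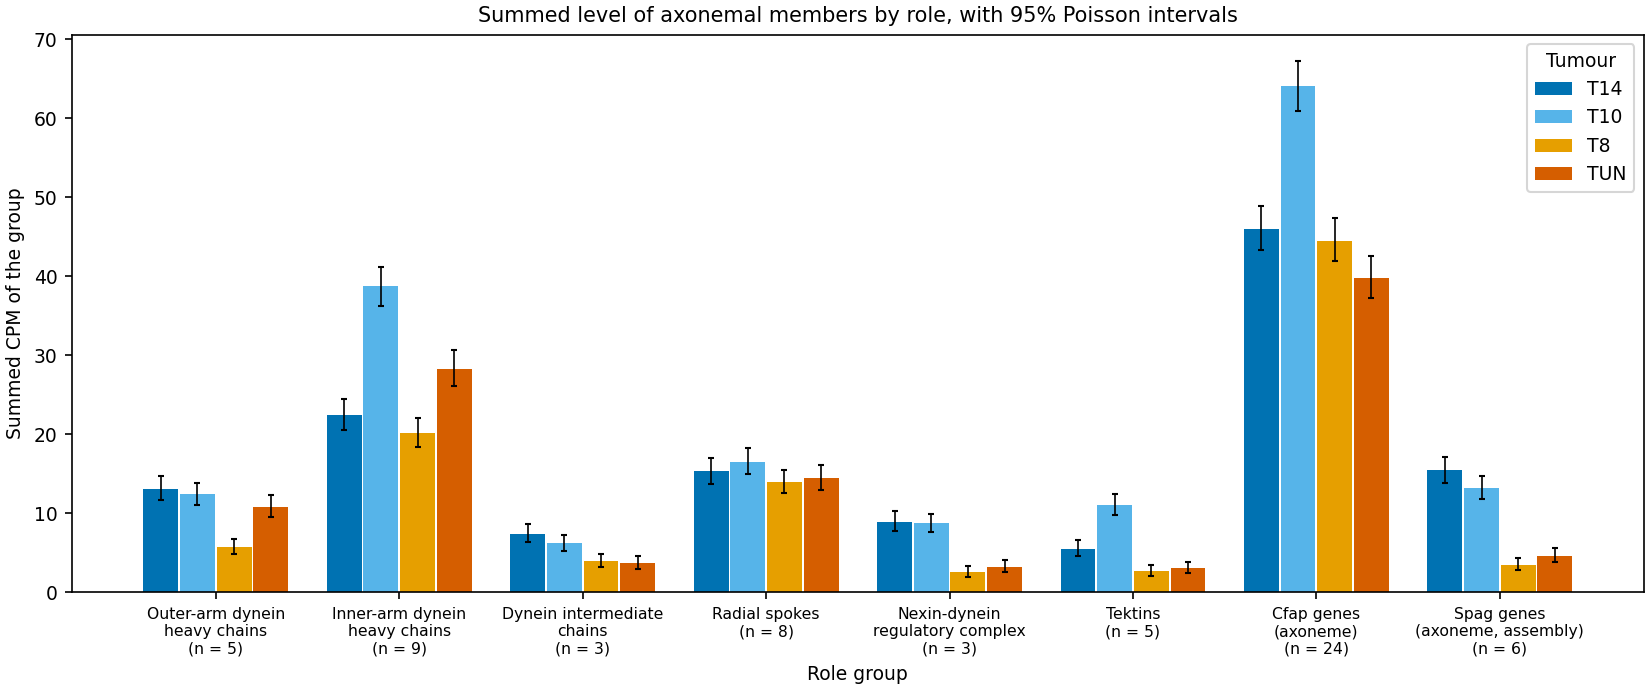
Summed CPM of the axonemal members in each role group and tumour, with 95% Poisson intervals that cover counting error only. Spag, tektin and nexin-dynein regulatory complex genes are higher in T14 and T10 (15.4 and 13.2 CPM for Spag genes) than in T8 and TUN (3.48 and 4.6 CPM), while radial spoke genes lie between 13.9 and 16.5 CPM.

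Of the 38 members at a mean of 1 CPM or more, 20 (52.6%) were higher in both T14 and T10 than in T8 and TUN, against 34.5% of all 14320 genes at that level. The labels give no such pairing of tumours. Here and elsewhere in the text it was not planned and was read from these same libraries, so the shares are description only. The reverse held for 2 members (5.26%), Rsph9 and Cfap43, against 32% of all genes. T10 was the highest tumour for 21 of the 38 (55.3%), against 20.9% of all 14320 genes. No share for genes at 1 to 10 CPM is given for this, so it is not matched to the low level of most axonemal members. Among all 3614 genes at 1 to 10 CPM the share with T14 and T10 on top was 43.2%, and there 18 of 28 axonemal members (64.3%) showed it. Of the 72 members with any count, 48 (66.7%) showed it, against 28.9% of 25961 genes. These shares are not matched for level, and a gene counted in a single tumour cannot show that order. At a mean of 1 CPM or more, the axonemal members deviated from their 4-tumour mean by 0.25, 0.54, -0.47 and -0.33 log2 CPM on average, and all genes at that level by 0.13, 0.10, -0.13 and -0.11. Members of other known roles deviated by 0.05, -0.07, 0.02 and 0.00. The median range between highest and lowest tumour was 0.97 log2 units for the 28 axonemal members at 1 to 10 CPM and 1.10 for all genes there, so the spread of these members was not wider than that of genes of like level. In bulk RNA, fewer cells of a type and less RNA per cell cannot be told apart.

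Other genes of the motile cilium, from a list with the members taken out, gave a similar picture. Of 49 such genes outside the rule, 14 reached 1 CPM in all tumours and 17 in none, and the 24 at a mean of 1 CPM or more deviated by 0.30, 0.47, -0.56 and -0.21. Of 20 tested, 1 was called, Tppp3, a tubulin-binding protein also known from glia, at 48.4, 50.8, 6.87 and 5.4 CPM (adjusted p = 0.000214). The most abundant were the dynein light chain genes Dnal1 (66.5, 50.2, 29.5 and 41.6 CPM) and Dnal4 (35.1 ± 4.62 CPM). Hydin, of the central pair, and Sntn, of the ciliary tip, were below 1 CPM throughout. These genes and the members rest on the same 4 libraries and are not independent samples of the tumours.

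The regulators differed widely in level. Foxj1 stood at 16.2, 11.2, 6.75 and 6.12 CPM. Rfx3 and Rfx4 were the most abundant, at 63.7 ± 7.3 and 63 ± 18.6 CPM (SD, n = 4), while Rfx2 stood at 4.71, 2.61, 2.09 and 12.3 CPM. The genes that start multiciliated cell formation were at or near the floor: Mcidas had 2, 4, 0 and 0 counts and Gmnc 1, 9, 1 and 1, and the highest level of Ccno was 0.419 CPM. E2f4 and E2f5, their partners, are also cell cycle genes and stood at 43.9 ± 4.24 and 24.6 ± 4.79 CPM. Myb stood at 5.23 ± 1.6 CPM and Trp73 at 2.89, 1.18, 2.89 and 0.0893 CPM. Of the 7 regulators tested, edgeR called 0 and DESeq2 marked 0 as dispersion outliers, and 1 (Rfx2) had an unadjusted p under 0.05 in edgeR.

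Motile cilia in the brain are best known from ependymal cells, whose listed markers gave no common order of tumours. Of the 13 at a mean of 1 CPM or more, 5 were higher in T14 and T10 than in T8 and TUN and 5 were lower, and of all 18 the numbers were 9 and 5. The more specific markers were low. Ccdc153 had 30, 15, 8 and 1 counts, Tmem212 had 17, 14, 3 and 0 and Fam183b had 28, 18, 1 and 4. Mia had 2, 0, 1 and 0 counts, and Mlf1 ran the other way at 2.57, 2.4, 3.6 and 6.16 CPM. Ccdc153, Tmem212 and Fam183b were each higher in T14 and T10 than in T8 and TUN and did not exceed 1.33 CPM. Rarres2 (6.92, 3.09, 0.67 and 0.625 CPM) and Hdc (5.95, 2.04, 0.587 and 0.313 CPM) had the same order. So did 1110017D15Rik, at 0.977, 0.855, 0.461 and 0.313 CPM. The 5 with T8 and TUN on top were Mlf1, Vim, Tuba1a, Dbi and Nnat. Of the abundant genes of that list, Vim, Gfap, Tuba1a, S100b and Sox9 are also those of astrocytes or of many brain cells. Dbi (499 ± 103 CPM, SD, n = 4) and Nnat (413 ± 52.6 CPM) were abundant as well. Of its 18 genes, 11 reached 1 CPM in all tumours and 3 in none, its summed level was 3462 to 5228 CPM, and 3 of 12 tested were called (Rarres2, S100b and Gfap).

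Markers of neurons and astrocytes differed between T14 and T10 on one side and T8 and TUN on the other. All 16 neuron markers were higher in T14 and T10 than in T8 and TUN, with summed levels of 5517, 3379, 432 and 227 CPM, and Snap25 at 1580, 1329, 124 and 63.8 CPM; edgeR called 15 of 15 tested and DESeq2 marked 9. The same held for 9 of 11 astrocyte markers, with 7336, 4720, 2452 and 2182 CPM in sum. Of these 11, edgeR called 7 and DESeq2 marked 1 as a dispersion outlier. The 20 mitosis markers all ran the other way, with sums of 1299, 1278, 2326 and 2977 CPM. Of these 20, edgeR called 0 (2 at an unadjusted p under 0.05) and DESeq2 marked 0. Choroid plexus markers were highest in T10, with sums of 383, 1369, 350 and 438 CPM and Ttr, the transthyretin gene, at 34, 579, 36.9 and 3.35 CPM; Kcnj13 had 0 counts in T8 and TUN, and 1 of 5 tested was called (Ttr). The axonemal sum was also highest in T10, at 171 CPM against 134 CPM in T14. At a mean of 1 CPM or more, T10 was the highest tumour for 19 of 30 axonemal members, against 20.9% of all genes, a share not matched for level within that limit. The part of neurons, astrocytes or choroid plexus in the axonemal values was not tested.

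**Figure D4:**
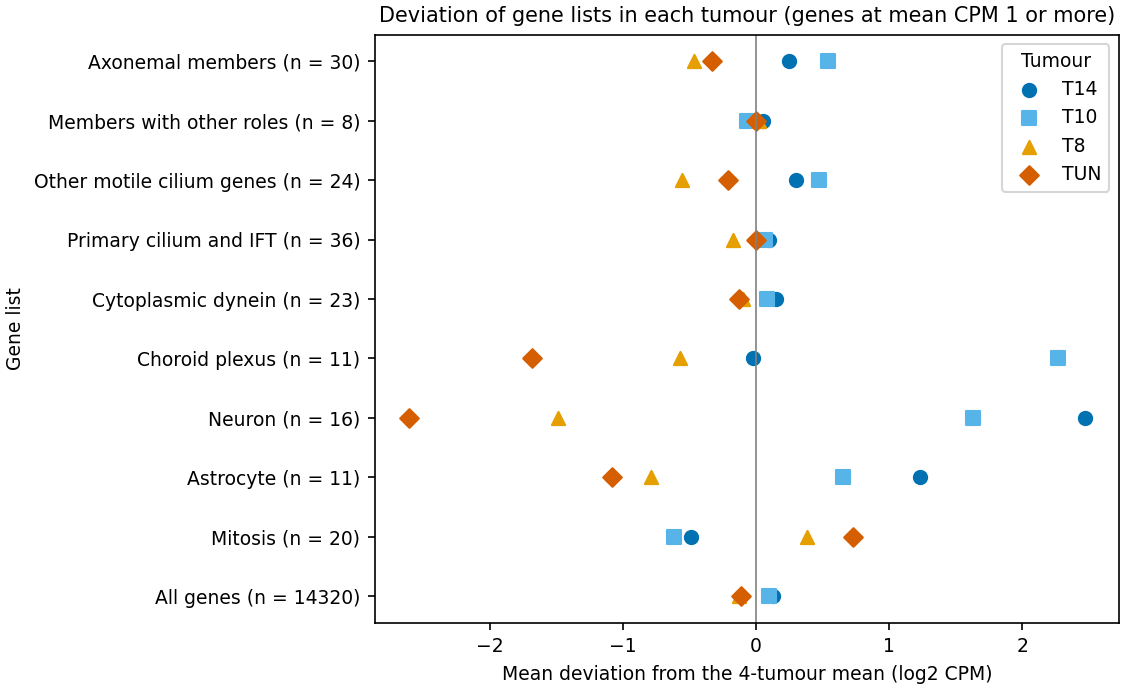
Mean deviation from the 4-tumour mean (log2 CPM) of each gene list, 1 point per tumour, over genes at a mean of 1 CPM or more (n beside each name). Axonemal members lie at 0.25 and 0.54 in T14 and T10 and at -0.47 and -0.33 in T8 and TUN, a smaller spread than that of neuron markers (2.47 to -2.61). Their highest tumour is T10, also the highest of choroid plexus markers (2.27).

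Cilium and dynein genes that are not motile were higher and more even. All 36 genes of the primary cilium and intraflagellar transport reached 1 CPM in all tumours. They were led by Kifap3 (261 ± 30.6 CPM, SD, n = 4), Kif3a (105 ± 23.5 CPM) and Kif3b (81.5 ± 4.06 CPM) of the kinesin-2 motor. Of the 36, edgeR called 0, also 0 at an unadjusted p under 0.05, and DESeq2 marked 0 as dispersion outliers. Their median level was 6.28 RPKM against 0.197 RPKM for axonemal members. T14 and T10 were both above T8 and TUN for 16 of the 36, against 34.5% of all genes. The reverse held for 4, against 32% of all genes. Ranges also narrow with level: the median was 0.66 log2 units over all genes at 1 CPM or more and 1.10 at 1 to 10 CPM. Cytoplasmic dynein and dynactin genes had a median of 38.2 RPKM, with the heavy chain Dync1h1 at 495, 736, 584 and 462 CPM. Their deviations were 0.15, 0.08, -0.10 and -0.13, and 1 of 23 tested was called, the neuronal intermediate chain Dync1i1 (95.3, 73.9, 8.67 and 8.22 CPM, adjusted p = 3.18e-06), a gene picked here after its values were seen. Of 15 spermatid genes 14 were below 1 CPM in every tumour, the exception being the centriole gene Odf2 at 73.9 ± 5.64 CPM, and all 7 airway secretory genes were below 1 CPM.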

How the data were processed

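The authors deposited whole-number read counts per gene for 4 tumours, and per the submitters' processing notes STAR, featureCounts and mm10 were used. The annotation named with the table is GENCODE vM8, and tool versions and counting options were not given in the sources used here. Column names match no single sample title, so each column stood for 1 tumour of the group, with no replicate number; 0 sample columns were left unused. Symbols were found for 46451 of 46946 genes. Counts were scaled by TMM in edgeR 4.0.16 (R 4.3.3; factors 0.971, 1.01, 0.988 and 1.03) to CPM, or to RPKM with the deposited exon length.

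Variability was tested by an intercept-only edgeR goodness of fit at trended dispersion (3 degrees of freedom, Benjamini-Hochberg over 14266 genes, threshold 0.05). Dispersion outliers of DESeq2 1.42.0, a flag without a p-value, served as alternative. A check on simulated counts used the same dispersion and changed a single tumour per gene. It therefore does not tell how much the count of members called can show. Deviations used log2 CPM with prior count 2. Exon bases shared with other genes were found for 25 members. Named genes were members past the fit, per role the 3 highest by RPKM at mean CPM 1 or more, the 5 highest by CPM, the 5 widest and 5 narrowest ranges, 3 paralog pairs, all regulators and the 3 highest by CPM of each other list. Other members and markers were named after their values were seen, to account for the members and to give the defining markers. The members and lists were chosen with earlier results of these data known. Alternatives changed scaling, filter, prior count, member set, detection limit and tool, or left out a tumour.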

Additional observations from a re-analysis of the deposited data

Results flagged for a closer look

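Among 72 named genes, 6 had 1 tumour far from the other 3 by Dixon's ratio of gap to range, where chance flags about 1 in 20 groups. The only member was Rsph3a, whose 2.19 CPM in TUN lay below 2.71, 2.81 and 2.77 CPM in T14, T10 and T8 (ratio 0.837). Of the regulators, Rfx4 stood at 90.6 CPM in T8 against 51.1 to 57.3 CPM elsewhere. Gmnc stood at 0.366 CPM in T10, from 9 counts, against 1 count in each other tumour. Of the marker genes, Ttr stood at 579 CPM in T10, Calb1 at 547 CPM in T14 and Slc1a3 at 1512 CPM in T14.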

How the results depend on the processing

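No paired analysis was possible because the labels give 1 group and the columns carry no replicate number. The count of members called was 0 with DESeq2 size factors or DESeq2 dispersion outliers, 1 (Tekt5) without a filter on low counts or with a filter at mean CPM 1, and 0 to 1 when a tumour was left out, the 1 being Tekt5 without TUN. Over all genes edgeR called 619, or 426 to 462 when a tumour was left out. DESeq2 marked 78 as dispersion outliers, which is a flag without a p-value and not the same test. None of the 26 named members tested crossed the threshold (lowest adjusted p 0.292). Mean deviations of the members at mean CPM 1 or more (0.21 in T14, 0.41 in T10, -0.37 in T8, -0.26 in TUN) kept their sign except over the 14 members at mean CPM 5 or more, where T14 was at -0.06 and TUN at 0.05. The number of members highest in T14 (8) was 19 over all members with a count, 2 at mean CPM 5 or more and 10 to 21 when a tumour was left out (21 without T10). For T10 (21) it was 40, 6 and 22 to 28. For T8 (4) it was 1 without members of other known roles and 4 to 6 when a tumour was left out. For TUN (5) it was 8 over all with a count, 3 at mean CPM 5 or more, 3 without members of other known roles and 6 to 11 (11 without T10). These sets differ in size by construction. Members detected in all tumours numbered 30, or 34 at CPM 0.5. Ranked by CPM in place of RPKM, 7 of 11 role groups changed place. The exclusion of 2 members above 10 CPM from the axonemal sum was chosen after seeing the data. Low counts limit single members: a library with under 10 counts fixes no level beyond its floor within a few fold.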
